A study of Homo sapiens and Mus musculus with 100 samples.

Results

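The comparison described here is between HepG2 cells that had received an AhR guide RNA and HepG2 cells that had received a control guide RNA, both kept without vitamin B2. It rests on 6 of the 100 samples of the series, 3 libraries for each guide, all labelled day 12. The members were chosen by column name in the guide RNA table, and every gene that passed the filter on low values was described. HepG2 is an established line from a human liver tumour that keeps much of the protein output of hepatocytes.

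AhR, the aryl hydrocarbon receptor, is a ligand-activated transcription factor. It waits in the cytoplasm in a complex with HSP90 and other chaperones, and after binding a ligand it enters the nucleus and pairs with ARNT. The pair binds short DNA elements with the core GCGTG and switches on genes of foreign-compound metabolism, of which CYP1A1 is the standard example in liver cells. Vitamin B2, riboflavin, is the source of FMN and FAD, the cofactors of flavin enzymes.

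The study measured messenger RNA in human liver and colon tumour lines and in mouse hepatocytes and liver, in the presence or absence of vitamin B2. A QuantSeq kit was used, per the labels' protocols, in which an oligo(dT) primer starts from poly(A) so that reads come from 3′ ends. All 12 libraries of the guide RNA table are from HepG2 at day 12, and they form 4 groups of 3. These are control medium with control guide, control medium with AhR guide, vitamin B2 deficiency with control guide and vitamin B2 deficiency with AhR guide. The sources used here do not give a genotype beyond the name of the line, the guide sequences, the cut site, how the nuclease was delivered, or whether the cells were a pool or 1 clone. The labels do not say if the 3 replicates of a group were separate cultures, so each p measures only how far these samples spread, and that spread may be technical.

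Between 6067600 and 7671400 reads were recovered per library from the deposited values, to the nearest 100. The 10 most abundant genes took 15.1% to 16.6% of the listed TPM in the 6 deprived libraries. The 10 hepatocyte markers checked were all present, and their summed level was 16174 to 16796 TPM with the control guide and 18809 to 19031 TPM with the AhR guide. Of 6 fibroblast markers 1 reached 1 TPM in any of the 12 libraries, and of 5 endothelial markers 0 did. Of 6 blood cell markers 3 did, HBB was at 0 in all 12 libraries, and the summed level was 247 to 254 TPM with the control guide against 382 to 443 TPM with the AhR guide. Most of that sum was LYZ, a lysozyme, at 224, 230.5 and 221 TPM with the control guide and 374, 363 and 424 TPM with the AhR guide, while the macrophage gene CD68 was at 17.2, 16.7 and 17.7 TPM with the control guide and 9.73, 10.7 and 11.2 TPM with the AhR guide. In control medium with the control guide, replicate 3 stood apart from replicates 1 and 2, so call counts that use that group are given with and without it.

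The first value to look at is AHR itself (chr7:17298652-17346151 on hg38, plus strand). AHR messenger RNA was at 8.26, 6.09 and 6.07 TPM with the control guide and 7.94, 8.09 and 7.06 TPM with the AhR guide. The 2 sets of libraries overlapped, and the difference, AhR guide minus control guide on the log2(TPM + 1) scale, was 0.17 ± 0.13 (SE; limma, adjusted p = 0.479 over 11893 genes, n = 3 against 3). In control medium AHR was at 4.54, 4.37 and 6.51 TPM with the control guide and 4.48, 4.76 and 4.88 TPM with the AhR guide. A small edit in the coding part need not lower the amount of a transcript that is read at its 3′ end, so this level does not check the edit. Below, every value after ± is an SE for a log2 difference or an SD for a TPM level, and every adjusted p comes from limma over all 11893 genes.

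Across those 11893 genes, 896 (7.53%) were higher and 533 (4.48%) lower with the AhR guide in deprived cells, at an adjusted p under 0.05. The median difference over all genes was 0.015. The shares of 7.53% and 4.48% are the background for the counts of gene lists below, and a few calls in a small list can lie near them. At least a 2-fold change was seen for 52 of the higher and 26 of the lower genes. In 892 of the 896 and 530 of the 533 the 3 libraries of one guide did not overlap with the 3 of the other. With 3 libraries a group a called gene is nearly bound to show this, so these counts restate the calls and add no support. The same holds where single genes below are said not to overlap. The highest and lowest genes were also named only if their groups did not overlap. Protein-coding genes made up 828 of the higher and 492 of the lower calls. Without replicate 1 of the AhR guide 537 genes were higher and 311 lower, and without replicate 2 of the control guide the counts were 585 and 317.

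**Figure D1:**
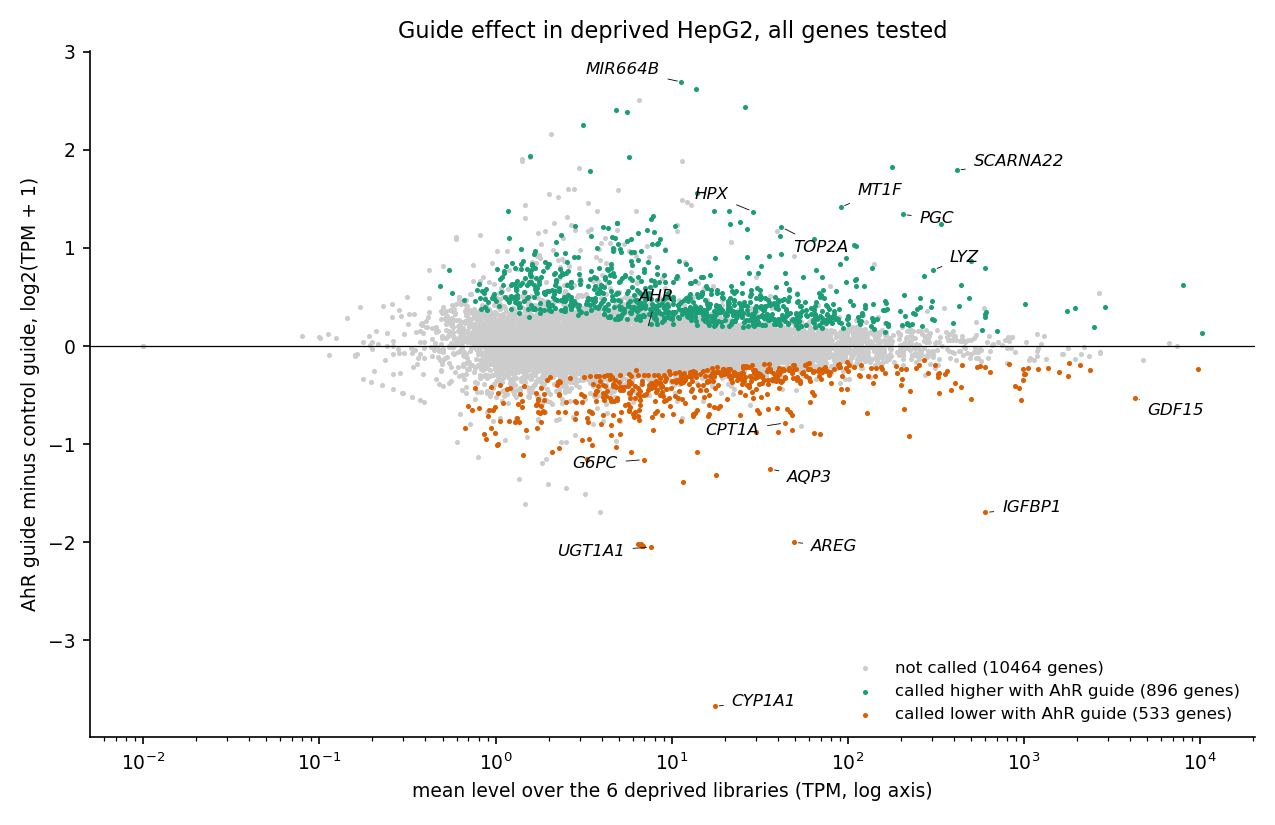
Each point is 1 of the 11893 genes tested in deprived HepG2, with the mean level over the 6 libraries (TPM, log axis) on the x axis and the AhR guide minus control guide difference in log2(TPM + 1) on the y axis. The 896 higher and 533 lower genes are coloured, and CYP1A1 lies lowest at -3.68.

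The lowest gene was CYP1A1 (chr15:74719542-74725610 on hg38, minus strand), a cytochrome P450 that oxidises polycyclic aromatic compounds and is the classic transcriptional readout of AhR. In deprived cells CYP1A1 was at 36.2, 32.0 and 32.4 TPM with the control guide and 1.83, 1.16 and 2.22 TPM with the AhR guide, from 1018, 824 and 805 reads against 47, 34 and 69. All 3 control guide libraries were far above all 3 AhR guide libraries. The means, 33.5 ± 2.33 and 1.74 ± 0.537 TPM (SD, n = 3), differed 19.3-fold, and the fitted difference was -3.68 ± 0.12, adjusted p = 1.02e-09. In control medium the same gene was at 4.45, 4.40 and 3.75 TPM with the control guide and 1.84, 1.90 and 1.92 TPM with the AhR guide, a difference of -0.85 ± 0.12, adjusted p = 0.000129. Among cells with the AhR guide, the deprived minus control medium difference was -0.10 ± 0.12, adjusted p = 0.535.

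The sequences before the start of CYP1A1, AREG and UGT1A6 are shown because they hold the core letters GCGTG. CYP1A1 and AREG fell with the AhR guide. UGT1A6 belongs to the UGT1A locus, whose entries cannot be told apart by 3′ reads, so only a fall of the locus was seen. The bases on either side of the core were not compared with those of a known AhR element. Each run is the 250 bases before the RefSeq gene start on GRCh38.p14, read 5′ to 3′ on the gene's own strand, with GCGTG in capitals. CYP1A1 is at chr15:74725529-74725778 on the minus strand, AREG at chr4:74444886-74445135 on the plus strand, and the first of the 2 RefSeq windows of UGT1A6 at chr2:233691452-233691701 on the plus strand.
CYP1A1: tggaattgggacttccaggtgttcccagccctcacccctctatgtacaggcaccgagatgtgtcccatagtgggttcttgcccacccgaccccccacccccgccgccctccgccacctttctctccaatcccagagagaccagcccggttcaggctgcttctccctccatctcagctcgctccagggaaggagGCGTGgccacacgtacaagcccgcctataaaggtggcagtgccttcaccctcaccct
AREG: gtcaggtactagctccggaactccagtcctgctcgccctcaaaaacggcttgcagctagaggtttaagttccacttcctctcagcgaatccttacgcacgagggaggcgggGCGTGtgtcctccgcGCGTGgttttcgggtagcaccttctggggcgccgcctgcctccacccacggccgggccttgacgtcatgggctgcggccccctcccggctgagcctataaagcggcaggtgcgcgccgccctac
UGT1A6: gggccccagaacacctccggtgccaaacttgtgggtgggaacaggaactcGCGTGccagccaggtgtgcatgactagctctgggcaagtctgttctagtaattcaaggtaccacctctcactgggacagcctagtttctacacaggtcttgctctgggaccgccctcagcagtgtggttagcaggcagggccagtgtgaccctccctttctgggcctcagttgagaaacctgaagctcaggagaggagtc
Counting back from the gene start, the first letter of the motif lies 57 bases before it in CYP1A1, 139 and 124 bases before it in AREG and 200 bases before it in UGT1A6. The second UGT1A6 window and that of UGT1A1 held no match to GCGTG or its reverse complement CACGC. These distances are from the RefSeq start. The deposited annotation starts CYP1A1 82 bases and AREG 38 bases before the RefSeq start, so the end of each window lies inside the deposited gene model, and the CYP1A1 motif lies in that stretch. It starts UGT1A6 1164 bases after the start behind the window shown. That is 24 bases before the start behind the second window, so the deposited gene model is closer to the window without a match. The motif is short and common. It was present on either strand in 31.9% of all 27305 gene windows of this length and in 46.1% of the 8892 tested genes with a window. Among the genes called higher it was in 43.2% (290 of 671), and among those called lower in 47.2% (188 of 398). A match describes these letters only and is no measurement of binding.

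The UGT1A locus on chromosome 2 encodes UDP-glucuronosyltransferases, which attach glucuronic acid to bilirubin, drugs and phenols. Its 9 tested entries share their last exons, so a 3′ library gives them 1 signal. With the locus counted once, 525 genes in all were lower in place of 533. UGT1A1 (chr2:233760273-233773299 on hg38, plus strand) was at 12.7, 12.3 and 13.4 TPM with the control guide and 3.19, 1.78 and 2.16 TPM with the AhR guide. The groups did not overlap, and the difference was -2.05 ± 0.18, adjusted p = 1.7e-05, a 5.39-fold difference of means. In control medium it was at 2.31, 3.15 and 1.34 TPM with the control guide and 0.639, 0.649 and 0.739 TPM with the AhR guide.

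AREG (chr4:74445098-74455009 on hg38, plus strand) encodes amphiregulin, a ligand of the EGF receptor. It was at 81.0, 83.0 and 76.3 TPM with the control guide and 18.4, 21.8 and 17.7 TPM with the AhR guide, with no overlap and a difference of -2.00 ± 0.18, adjusted p = 3.42e-05. In control medium AREG was at 3.05, 2.32 and 3.18 TPM with the control guide and 2.29, 1.12 and 2.81 TPM with the AhR guide, and that difference of -0.36 ± 0.18 missed the threshold (adjusted p = 0.136).

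IGFBP1 (chr7:45888419-45893668 on hg38, plus strand) encodes a secreted binding protein for insulin-like growth factors whose transcription insulin represses. Its levels were 940.1, 916 and 916 TPM with the control guide and 251, 322 and 283 TPM with the AhR guide. The groups were 3.24-fold apart by their means, and the difference was -1.70 ± 0.11, adjusted p = 5.13e-06. Here the control medium libraries showed the same direction, at 1024, 1154 and 822 TPM with the control guide and 195, 184 and 197 TPM with the AhR guide, a difference of -2.36 ± 0.11, adjusted p = 7.32e-08.

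Of the 13 genes listed as AhR targets, 6 passed the filter on low values, and since UGT1A1 and UGT1A6 are 1 signal these are 5 separate signals. CYP1A1 and the UGT1A locus fell, 0 rose, and the median over the 5 was 0.016. The other three did not pass the test. TIPARP, an ADP-ribosyltransferase that feeds back on AhR, was at 4.32, 3.46 and 4.43 TPM with the control guide and 4.08, 4.43 and 3.82 TPM with the AhR guide, with overlapping groups and a difference of 0.02 ± 0.11, adjusted p = 0.947. NQO1, a quinone reductase that uses FAD, was at 229, 236 and 238 TPM with the control guide and 250.0, 243 and 249.8 TPM with the AhR guide, a difference of 0.08 ± 0.08, adjusted p = 0.606. SLC7A5, an importer of large neutral amino acids, was at 52.6, 61.0 and 56.3 TPM with the control guide and 57.9, 61.7 and 53.9 TPM with the AhR guide, a difference of 0.03 ± 0.09, adjusted p = 0.88. The 7 remaining listed genes, among them CYP1A2, CYP1B1 and AHRR, were below the filter. One of them, EREG, the EGF receptor ligand epiregulin, had 21, 11 and 13 reads with the control guide and 2, 4 and 0 with the AhR guide, with no overlap. In the fit without the filter EREG differed by -0.35 ± 0.05 (adjusted p = 0.00354), and the other six did not pass the test.

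**Figure D2:**
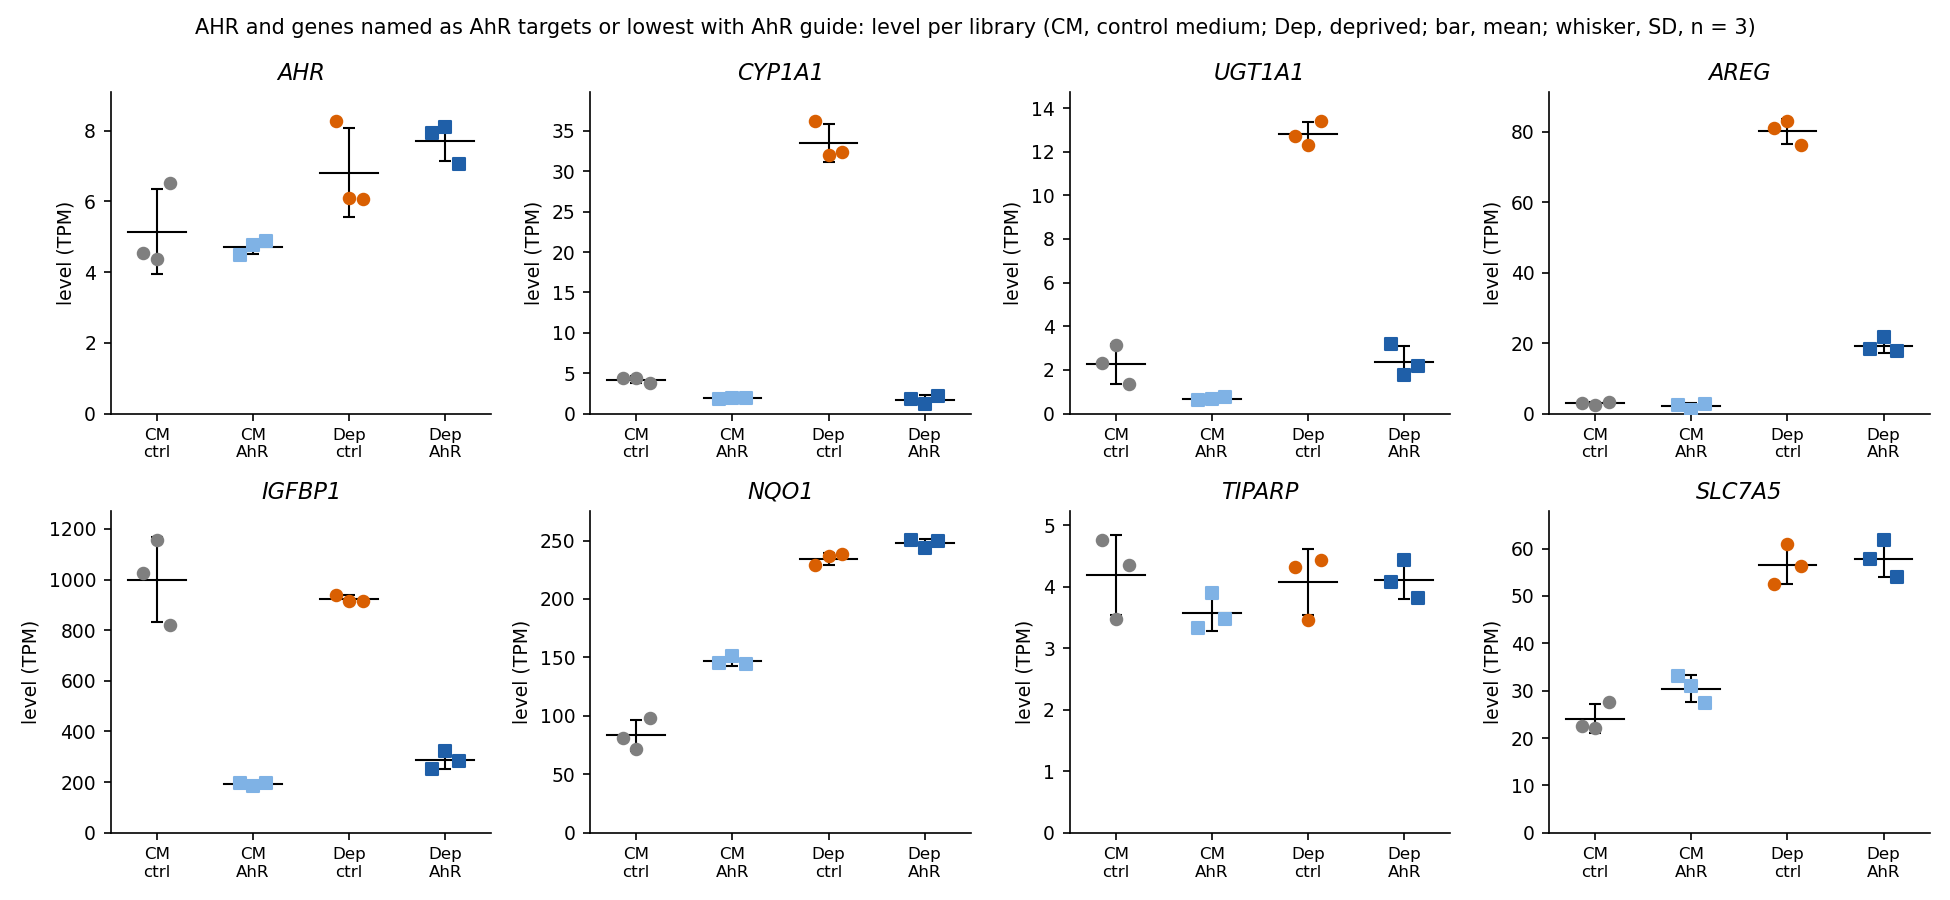
Each panel gives the level of 1 gene (TPM, y axis from 0) in every library of the 4 groups on the x axis (CM, control medium; Dep, deprived; ctrl, control guide; AhR, AhR guide), with the mean as a bar and the SD as a whisker, n = 3. CYP1A1, UGT1A1 and AREG are highest in deprived cells with the control guide, IGFBP1 is lower with the AhR guide in both media, and AHR and TIPARP overlap between guides.

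Further genes among the lowest, chosen after their values were seen because the UGT1A entries had filled the list, came from several functions. AQP3, an aquaglyceroporin, was at 51.4, 50.7 and 52.7 TPM with the control guide and 23.7, 21.6 and 18.1 TPM with the AhR guide, a difference of -1.26 ± 0.20, adjusted p = 0.00213. TNNI2, a troponin subunit of fast muscle, was at 28.3, 22.7 and 26.2 TPM with the control guide and 9.07, 11.3 and 8.81 TPM with the AhR guide, and it fell by 1.32 (adjusted p = 0.000324). In neither gene did the groups overlap, which was a condition for naming them. FST, the activin-binding protein follistatin, changed by -0.90 ± 0.11 and PIM1, a serine/threonine kinase, by -0.87 ± 0.10 (adjusted p = 0.000245 and 0.000166). LEAP2, a hormone that opposes ghrelin, changed by -0.88 ± 0.09 (adjusted p = 4.58e-05). The long noncoding RNA LINC01564 changed by -1.39 ± 0.25 (adjusted p = 0.00545), a call that was lost at a pseudocount of 0.1 (adjusted p = 0.104). LGALS3, the sugar-binding protein galectin-3, was at 82.3, 83.3 and 86.3 TPM with the control guide and 49.8, 41.7 and 43.2 TPM with the AhR guide, a difference of -0.89 ± 0.09, adjusted p = 4.58e-05. In control medium LGALS3 went the other way, from 15.9, 12.5 and 14.9 TPM with the control guide to 33.9, 28.7 and 29.6 TPM with the AhR guide.

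Of the 12 highest differences among genes with a mean of at least 10 TPM in one group, 9 belonged to small noncoding RNAs. SCARNA22 (chr4:1974636-1974760 on hg38), a small Cajal body RNA, was at 182, 169 and 208 TPM with the control guide and 656, 657 and 627 TPM with the AhR guide, a difference of 1.79 ± 0.06, adjusted p = 1.43e-09. SNORA19, a small nucleolar RNA, was at 74.8, 64.6 and 97.3 TPM with the control guide and 278, 308 and 250.4 TPM with the AhR guide, a difference of 1.82 ± 0.18, adjusted p = 0.000229. For both RNAs every AhR guide library was above every control guide library, as the choice of genes required. The largest fitted value, 2.69 for the microRNA gene MIR664B, rested on 1, 1 and 2 reads against 13, 17 and 9 and shares its place with SNORA36A, so the 2 entries are 1 signal. That call was lost at a pseudocount of 0.1 (adjusted p = 0.0989). SNORA33 (2.63 ± 0.57) and SNORA23 (1.37 ± 0.35) lost their calls without single libraries of either guide, with adjusted p up to 0.0734 and 0.109. Among all 245 snoRNA genes tested 14 were higher (5.71%, against 7.53% of all genes) and 1 lower (0.408%, against 4.48%). So they were called less often than genes in general, while their median difference was 0.374. The kit primes at poly(A), and which form of these RNAs was read was not tested.

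Among protein-coding genes the highest was MT1F, described with the metallothioneins. HPX, hemopexin, the plasma protein that binds free heme, was at 16.3, 14.4 and 16.2 TPM with the control guide and 46.8, 38.1 and 41.7 TPM with the AhR guide, a difference of 1.37 ± 0.18, adjusted p = 0.000629. PGC, the precursor of the gastric protease pepsin C, was at 121, 104 and 122 TPM with the control guide and 302, 267 and 316 TPM with the AhR guide, a difference of 1.34 ± 0.09, adjusted p = 2.89e-06. Neither gene's groups overlapped, again a condition of the choice. TRIM50, a ubiquitin ligase, rose by 1.30 ± 0.19, SPARC, a matrix glycoprotein, by 1.16 ± 0.14, and UBD, a ubiquitin-like protein, by 1.12 ± 0.12 (adjusted p = 0.00107, 0.000208 and 8.85e-05).

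Most cell cycle genes rose. Of 22 measured, 17 were higher, 0 lower and 5 did not pass the test, with a median of 0.70 against 0.015 over all genes. BIRC5, the mitotic survival protein survivin, was at 3.91, 3.83 and 4.34 TPM with the control guide and 11.6, 11.9 and 11.3 TPM with the AhR guide, a 2.88-fold difference of means and a log2 difference of 1.33 ± 0.12, adjusted p = 2.17e-05. TOP2A, the topoisomerase that untangles replicated DNA, was at 24.0, 25.6 and 24.9 TPM with the control guide and 63.0, 55.0 and 59.0 TPM with the AhR guide, a difference of 1.21 ± 0.09, adjusted p = 4.79e-06. CDK1, the kinase that drives entry into mitosis, was at 4.06, 4.01 and 3.97 TPM with the control guide and 10.8, 10.2 and 10.2 TPM with the AhR guide, a difference of 1.19 ± 0.08, adjusted p = 1.12e-06. The libraries of the 2 guides were apart in all 3 genes. CDC20, an activator of the anaphase-promoting complex, rose by 1.23 ± 0.23 (adjusted p = 0.00545). PCLAF and AURKB, a PCNA-binding factor and a mitotic kinase, rose by 1.20 and 1.09 (adjusted p = 1.34e-06 and 4.96e-05). Leaving out any 1 of the 6 libraries gave 15 to 17 higher members. In control medium, 21 of the 22 were higher and 0 lower with the AhR guide, also without replicate 3 of the control guide there, and the median was 1.115. The interaction (effect in deprived cells minus that in control medium) was negative for 10 of the 22, or 11 without that replicate, and positive for 0. Among the 10 were RRM2, a subunit of ribonucleotide reductase (-1.06), and PCNA, the replication clamp (-0.89).

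Genes of cholesterol synthesis and its regulation also rose in most cases. Of 24 measured 16 were higher, 0 lower and 8 not called, with a median of 0.33. LSS, lanosterol synthase, was at 5.12, 4.32 and 5.01 TPM with the control guide and 10.5, 7.21 and 9.59 TPM with the AhR guide, a difference of 0.78 ± 0.11, adjusted p = 0.000453. Its AhR guide libraries were all above its control guide libraries. STARD4, a sterol carrier, and NSDHL, an enzyme of late cholesterol synthesis, rose by 0.55 and 0.49 (adjusted p = 0.000946 and 0.000611). Leaving out single libraries gave 11 to 17 higher genes.

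Fatty acid and triglyceride synthesis had 9 of 20 genes higher and 0 lower, with a median of 0.21. FADS2, a desaturase that starts the synthesis of polyunsaturated fatty acids, was at 7.12, 6.33 and 5.62 TPM with the control guide and 10.3, 10.2 and 11.2 TPM with the AhR guide, a difference of 0.65 ± 0.08, adjusted p = 0.000166. SCD, stearoyl-CoA desaturase, was at 35.5, 31.1 and 33.5 TPM with the control guide and 49.1, 42.8 and 47.6 TPM with the AhR guide, a difference of 0.47 ± 0.06, adjusted p = 0.000415. The 2 genes had no overlap between guides. ACSS2, which makes acetyl-CoA from acetate, rose by 0.49 (adjusted p = 0.00183). PNPLA3, a lipid droplet hydrolase, was called at 0.47 (adjusted p = 0.0233) but not under 6 of 17 alternatives. The count of 9 fell to 4 without replicate 1 of the AhR guide or without replicate 2 of the control guide, and to 5 without replicate 3 of either guide.

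Targets of PPARA, the fatty acid receptor of liver, were split, with 3 of 15 higher (20%) and 2 lower (13.3%) and a median of 0.03. Over all genes these shares were 7.53% and 4.48%. FABP1, the liver fatty acid binding protein, was at 381, 323 and 338 TPM with the control guide and 555, 467 and 583 TPM with the AhR guide, a difference of 0.62 ± 0.08, adjusted p = 0.000505. CPT1A, which admits long-chain fatty acids to mitochondria, was at 57.8, 54.7 and 54.6 TPM with the control guide and 32.9, 30.8 and 31.9 TPM with the AhR guide, a difference of -0.79 ± 0.09, adjusted p = 0.000142. So the binding protein rose while the mitochondrial gate fell, each without overlap. ACAA2 and EHHADH, enzymes of beta-oxidation, rose by 0.35 and 0.32, and VNN1, a pantetheinase, changed by -0.73 (adjusted p = 0.00928, 0.0302 and 0.00359). Among gluconeogenesis and insulin-repressed genes 2 of 5 fell, IGFBP1 and G6PC, and 0 rose. G6PC, the last enzyme of glucose release, was at 10.1, 10.5 and 9.05 TPM with the control guide and 3.56, 3.05 and 5.24 TPM with the AhR guide, a difference of -1.16 ± 0.15, adjusted p = 0.000428.

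Of 22 measured genes of secreted hepatocyte proteins 9 rose and 2 fell, with a median of 0.13, and these genes overlap with the hepatocyte markers whose sum was higher with the AhR guide. ALB, serum albumin, was at 2557, 2334 and 2553 TPM with the control guide and 3228, 3085 and 3489.7 TPM with the AhR guide, a difference of 0.40 ± 0.06, adjusted p = 0.000596. AFP, the fetal albumin relative, was at 549.9, 517 and 561 TPM with the control guide and 643, 637 and 722 TPM with the AhR guide, a difference of 0.30 ± 0.06, adjusted p = 0.00445. Both had all AhR guide libraries above all control guide libraries, as had APOH, a phospholipid-binding plasma protein, at 0.43 ± 0.06, adjusted p = 0.000428. The 2 genes that fell were AMBP (-0.22) and APOC3 (-0.21), a plasma protease inhibitor precursor and an apolipoprotein (adjusted p = 0.00201 and 0.0229), and 1 fell without replicate 1 of the AhR guide or replicate 3 of the control guide. A change in the share of cells that make these RNAs and a change in RNA per cell cannot be told apart in bulk samples.

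Of 12 acute phase genes 5 were higher and 1 lower, and that number was 3 without any 1 of 5 libraries (replicates 2 and 3 of the AhR guide and all 3 of the control guide). SERPINA3, an inhibitor of neutrophil proteases, was at 448, 419 and 455 TPM with the control guide and 697, 764 and 838 TPM with the AhR guide, a difference of 0.79 ± 0.08, adjusted p = 3.12e-05. HAMP, which encodes hepcidin, the hormone of iron balance, was at 77.9, 89.2 and 89.5 TPM with the control guide and 125, 139 and 152 TPM with the AhR guide, a difference of 0.69 ± 0.17, adjusted p = 0.0278 that was lost under 6 of 17 alternatives. The one lower gene was ORM1, a plasma acid glycoprotein, at -0.38 ± 0.09, adjusted p = 0.0199, a call lost without replicate 1 of the AhR guide or replicate 2 or 3 of the control guide. Liver-enriched transcription factors had 2 of 13 higher (15.4%, against 7.53% of all genes) and 0 lower. The 2 were FOXA3 (0.41, adjusted p = 0.000944) and FOXA2 (0.26, adjusted p = 0.00883). Iron genes had 3 of 11 higher (27.3%, against 7.53% of all genes), namely HAMP, TF and TFR2, and 1 lower (9.09%, against 4.48%), FTH1. The higher count was 1 without replicate 3 of the AhR guide or replicate 2 of the control guide. Bile acid genes had 0 of 8 called either way, and the urea cycle had 1 of 6 higher (16.7%), ARG1. That gene passed the filter through its control medium levels, and in deprived cells it was at 0.128, 0.210 and 0.145 TPM with the control guide and 1.12, 0.674 and 0.578 TPM with the AhR guide, from 2, 3 and 2 reads against 16, 11 and 10. The call was lost at a pseudocount of 5 (adjusted p = 0.0736), and ARG1 was not tested when only the 6 deprived libraries were fitted.

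Among EGF receptor ligands and genes of MAPK feedback, 5 of 13 were lower and 0 higher, with a median of -0.06. After AREG the lowest was EGR1, an immediate early transcription factor, at 18.1, 19.8 and 19.7 TPM with the control guide and 7.80, 9.79 and 8.21 TPM with the AhR guide, a difference of -1.08 ± 0.22, adjusted p = 0.00962. The phosphatases DUSP5 and DUSP6, which switch off ERK, changed by -0.56 and -0.39 (adjusted p = 0.00605 and 0.00548), the first lost at a pseudocount of 0.1 (adjusted p = 0.104). FOSL1, an AP-1 subunit, was called at -0.70 (adjusted p = 0.0288) and lost without replicate 1 or 2 of either guide. Targets of YAP, a growth-control coactivator, had 5 of 17 lower and 0 higher. ANKRD1 was at 77.8, 70.4 and 72.1 TPM with the control guide and 53.5, 47.8 and 46.5 TPM with the AhR guide, a difference of -0.57 ± 0.09, adjusted p = 0.000834, and IGFBP3 was at 3.08, 1.70 and 2.21 TPM with the control guide and 0.436, 0.728 and 0.426 TPM with the AhR guide, a difference of -1.11 ± 0.22, adjusted p = 0.00614, lost at a pseudocount of 5 and with voom (adjusted p up to 0.155). That YAP count fell to 3 without replicate 2 of the AhR guide or replicate 3 of the control guide, and to 2 without replicate 3 of the AhR guide or replicate 2 of the control guide.

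Targets of NRF2, the regulator of antioxidant enzymes, had 5 of 21 lower and 1 higher, with a median of -0.07. SRXN1, which repairs oxidised peroxiredoxins, was at 119, 111 and 108 TPM with the control guide and 78.2, 76.4 and 72.3 TPM with the AhR guide, a difference of -0.57 ± 0.05, adjusted p = 2.37e-05. The groups did not overlap, nor did those of the ferritin heavy chain gene FTH1, at 1019, 1005 and 1035 TPM with the control guide and 758, 753 and 788 TPM with the AhR guide. GCLC, the catalytic subunit for glutathione synthesis, and TXNRD1, a thioredoxin reductase, changed by -0.36 and -0.29 (adjusted p = 0.00284 and 0.0253), the second lost under 5 of 17 alternatives with adjusted p up to 0.102. Leaving out single libraries gave 4 or 5 lower genes.

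The integrated stress response had 2 of 29 genes lower and 0 higher, so that 6.9% were lower against 4.48% of all genes. The count was 1 without replicate 1 or 3 of the AhR guide or replicate 2 or 3 of the control guide, and 7 when only the 6 deprived libraries were fitted. GDF15, a secreted stress hormone, was at 5055, 5228 and 4902 TPM with the control guide and 3433, 3824 and 3240.0 TPM with the AhR guide, a difference of -0.54 ± 0.07, adjusted p = 0.000256 that did not pass after quantile normalization (adjusted p = 0.0735). ASNS, asparagine synthetase, changed by -0.34 (adjusted p = 0.0264), a call lost under 6 of 17 alternatives. Targets of p53 had 0 of 22 higher and 4 lower (18.2%, against 4.48% of all genes), namely GDF15, BBC3, CDKN1A and GADD45A. Without replicate 1 of the AhR guide 2 were lower.

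Metallothioneins, small proteins that hold zinc and copper, had 5 of 7 measured genes higher and 0 lower, with a median of 0.93, and the zinc exporter SLC30A1, the other gene of that list, was not called. MT1F was at 47.8, 51.4 and 48.2 TPM with the control guide and 148, 113 and 139 TPM with the AhR guide, a difference of 1.42 ± 0.19, adjusted p = 0.00128, and MT1G was at 176, 205 and 220.3 TPM with the control guide and 512, 454 and 460.1 TPM with the AhR guide, a difference of 1.24 ± 0.27, adjusted p = 0.0192. No AhR guide library was as low as a control guide library for these genes. MT2A was at 4463, 5492 and 4923 TPM with the control guide and 4474, 4642 and 4343 TPM with the AhR guide and did not pass the test (-0.14 ± 0.08, adjusted p = 0.279). The genes of this cluster are close copies, so reads may be split among them. MT1G lost its call under 4 of 17 alternatives, and 3 instead of 5 were called without replicate 1 of the AhR guide or replicate 2 of the control guide.

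Calls among genes of flavin metabolism, the pathway that vitamin B2 feeds, are given beside the 12% of all genes called in either direction. Whether the counts of these short lists depart from that share was not tested. Of 13 electron transfer flavoproteins and acyl-CoA dehydrogenases, the FAD enzymes of fatty acid and amino acid oxidation, 0 were called in either direction, and their differences ran from -0.37 to 0.24. The riboflavin transporter SLC52A2 was the 1 of 3 transport and flavin synthesis genes called, at 20.4, 20.6 and 22.2 TPM with the control guide and 18.8, 16.1 and 16.0 TPM with the AhR guide (-0.30 ± 0.09, adjusted p = 0.0493), and the call was lost under 9 of 17 alternatives. Of 24 other flavoenzymes 1 was higher (SQLE) and 2 lower (TXNRD1 and POR). These are 4.17% and 8.33%, against 7.53% and 4.48% of all genes, and both counts were 0 without replicate 3 of the AhR guide. In the kynurenine pathway, which breaks down tryptophan and yields AhR ligands, 2 of 8 were higher (25%, against 7.53% of all genes) and 0 lower. The 2 were the late enzymes HAAO (0.35) and QPRT (0.32), with adjusted p = 0.014 and 0.00179. The call for HAAO was lost without replicate 1 of the AhR guide or replicate 3 of the control guide. Among 9 measured genes of AhR and its partners 2 were lower (22.2%, against 4.48% of all genes). They were the chaperones HSP90AA1 (-0.32 ± 0.06, adjusted p = 0.00295) and HSP90AB1 (-0.19 ± 0.05, adjusted p = 0.0233). The second was lost without replicate 1 of the AhR guide or replicate 1 or 3 of the control guide.

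Among large complexes, cytosolic ribosomal protein genes had 19 of 74 lower and 0 higher, with a median of -0.12, and the lowest was RPL26 at -0.35 ± 0.05, adjusted p = 0.000415. Without replicate 1 of the AhR guide 11 were lower, and without replicate 2 of the control guide 10 were. The respiratory chain had 6 of 55 higher (10.9%, against 7.53% of all genes) and 1 lower, NDUFS4, lost without replicate 1 of either guide, and 0 were higher without replicate 1 of the AhR guide, 3 without its replicate 2 and 1 or 2 without any 1 control guide library. Endoplasmic reticulum chaperones had 5 of 18 higher, led by MANF (0.36 ± 0.07, adjusted p = 0.00286), and 3 without replicate 2 of the control guide. The proteasome had 2 of 37 higher (5.41%, against 7.53% of all genes), led by the immune subunit PSMB9 (0.65 ± 0.13, adjusted p = 0.00545). In that list 3 were lower (8.11%, against 4.48% of all genes), namely PSMB1, PSMC5 and PSMD9, or 1 without replicate 1 of the AhR guide or replicate 2 of the control guide. Hypoxia and glycolysis genes had 1 of 20 lower (5%, against 4.48% of all genes), LDHA, which was lost without replicate 1 or 2 of either guide. Interferon-stimulated genes had 2 of 13 higher (15.4%, against 7.53% of all genes), IFITM3 and BST2. The count was 4 without replicate 3 of the control guide and 1 without its replicate 1 or any 1 of the AhR guide libraries. The biliary and progenitor markers had 2 of 5 higher, SOX9 (0.47 ± 0.07, adjusted p = 0.00065) and KRT19, whose call was lost under 9 of 17 alternatives.

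**Figure D3:**
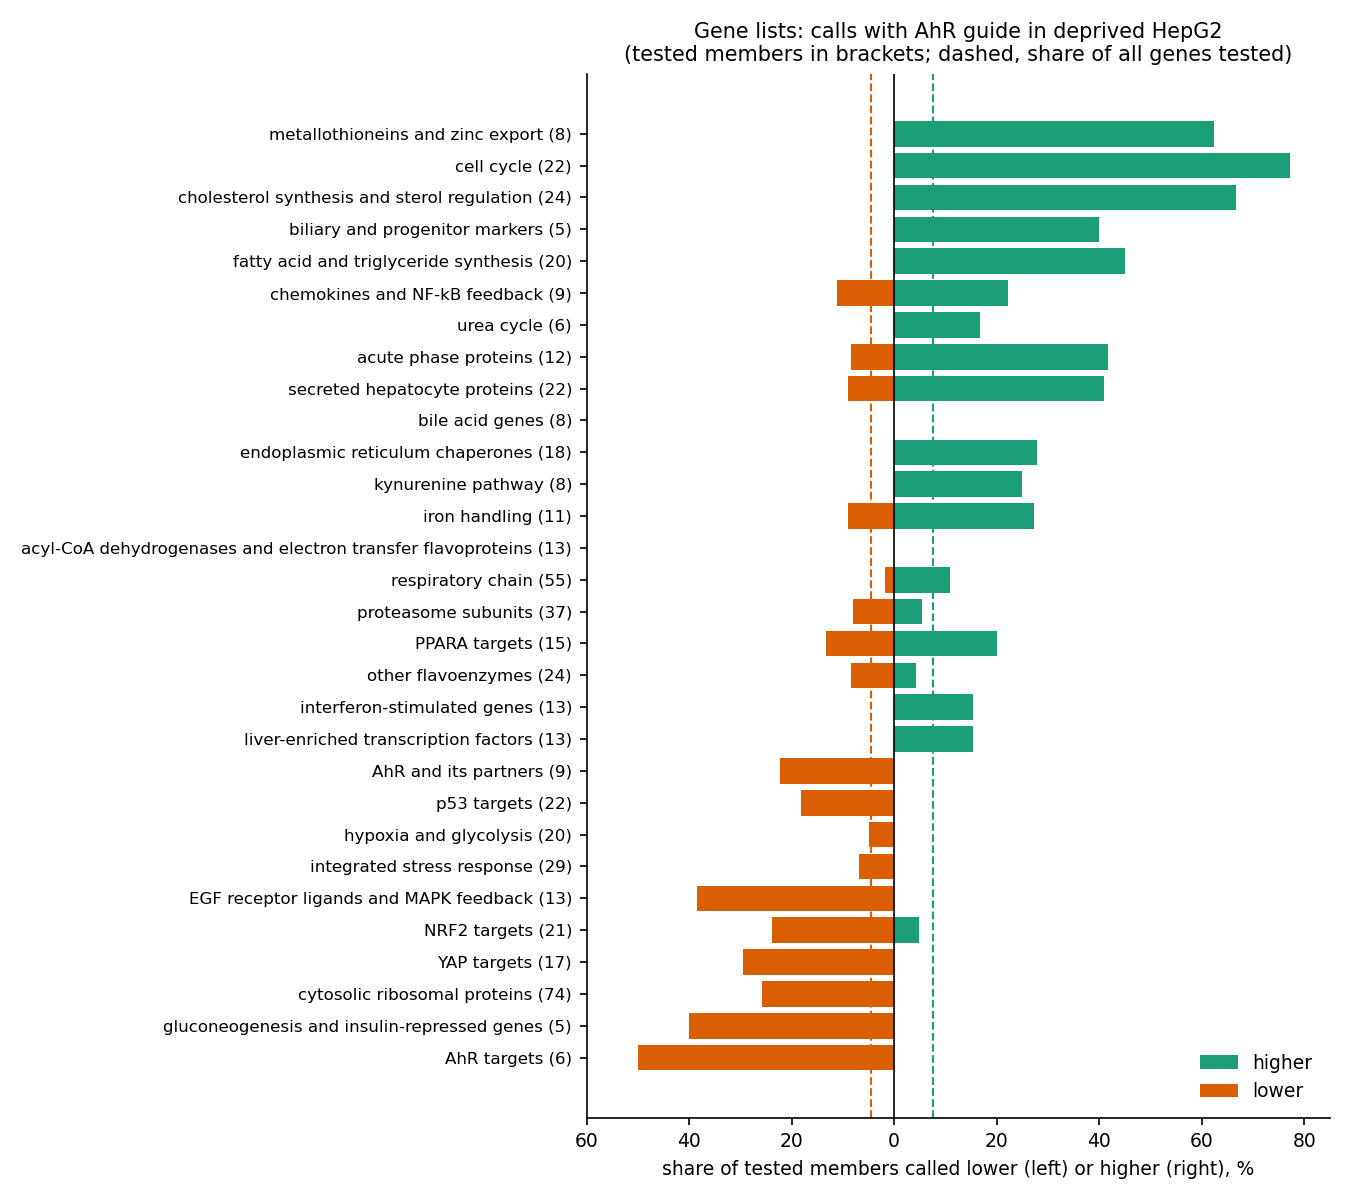
Each bar pair gives, for 1 gene list with at least 5 tested members (number in brackets), the share of tested members called lower (left) or higher (right) with the AhR guide in deprived cells, in percent. Dashed lines mark the shares of all 11893 genes, 4.48% lower and 7.53% higher, and the cell cycle and cholesterol lists reach farthest to the right.

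The same guide pair in control medium shares no library with the deprived comparison and gave more calls, 2775 genes higher (23.3%) and 1590 lower (13.4%). Higher calls were 63.6% of these, a share that was 49.2% when libraries were scaled to the same median, 48.8% after quantile normalization and 75.3% with voom on recovered reads. Without replicate 3 of the control guide in control medium the counts were 2975 and 1503. Of the 896 genes higher in deprived cells, 548 were also higher in control medium (61.2% of the deprived calls and 19.7% of the control medium calls), 77 were lower there and 271 were not called. Of the 533 lower genes, 280 were also lower in control medium (52.5% and 17.6%), 26 were higher there and 227 were not called. Without replicate 3 of the control guide in control medium these numbers were 550, 75 and 271, and 268, 29 and 236.

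Whether the guide effect differed between media was tested by the interaction, the effect in deprived cells minus that in control medium. It was higher for 733 genes (6.16%) and lower for 979 (8.23%). The share of higher among these calls, 42.8%, was 53.9% with median scaling, 55.6% with quantile normalization and 26.4% with voom on recovered reads, so the balance of directions depends on the scaling. Without replicate 3 of the control guide in control medium the counts were 811 and 1361.

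The interaction was most negative, among genes that fell in deprived cells, for CYP1A1, at -2.83 ± 0.17, adjusted p = 1.08e-06. AREG (-1.64 ± 0.25, adjusted p = 0.00129) and UGT1A1 (-1.13 ± 0.26, adjusted p = 0.0105) also fell more in deprived cells, the latter not at a pseudocount of 0.1 or with voom, where adjusted p reached 0.123. LGALS3 had opposite signs in the 2 media, with an interaction of -1.94 ± 0.13, adjusted p = 2.15e-06. NQO1 was at 81.3, 71.6 and 97.9 TPM with the control guide and 145, 151 and 144 TPM with the AhR guide in control medium, and its interaction was -0.74 ± 0.12, adjusted p = 0.00104.

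Metallothioneins rose more in control medium, with a negative interaction called for 7 of the 7, or 6 without replicate 3 of the control guide in control medium. MT1M was at 0.240, 0.466 and 1.58 TPM with the control guide and 44.7, 44.4 and 38.7 TPM with the AhR guide in control medium. In deprived cells it was at 0.655, 0 and 0 against 1.43, 2.72 and 2.17 TPM, and the interaction was -3.33 ± 0.40, adjusted p = 0.000451. MT2A was at 662, 570.4 and 600.2 TPM with the control guide and 2781, 2498 and 2419.9 TPM with the AhR guide in control medium, an interaction of -2.21 ± 0.11, adjusted p = 3.82e-07. All 7 were higher in control medium, with or without that replicate, with a median of 3.17. HPX also rose more in control medium, from 3.05, 2.20 and 5.00 to 35.1, 30.8 and 35.6 TPM (-1.65 ± 0.25, adjusted p = 0.0017).

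Several named genes with a positive interaction fell in control medium. PCK1, the enzyme that commits carbon to gluconeogenesis, was at 53.1, 51.8 and 33.2 TPM with the control guide and 9.22, 10.7 and 10.9 TPM with the AhR guide in control medium, but at 1.21, 1.28 and 1.08 and 0.895, 0.749 and 1.42 TPM in deprived cells (1.90 ± 0.23, adjusted p = 0.000181). G6PC fell in both media, by 3.08 in control medium and 1.16 in deprived cells (1.92 ± 0.22, adjusted p = 0.000121). IGFBP3 did likewise (2.66 ± 0.31, adjusted p = 0.000189). ALB fell in control medium, from 13001, 12538 and 12344 to 8009.9, 8831 and 9133 TPM, and rose in deprived cells (0.94 ± 0.08, adjusted p = 1.07e-05). CCL20, a chemokine, showed the same reversal, from 642, 596 and 514 to 299, 341 and 314 TPM in control medium and from 54.8, 58.9 and 59.9 to 85.8, 81.1 and 82.5 TPM in deprived cells (1.39 ± 0.11, adjusted p = 5.2e-06).

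**Figure D4:**
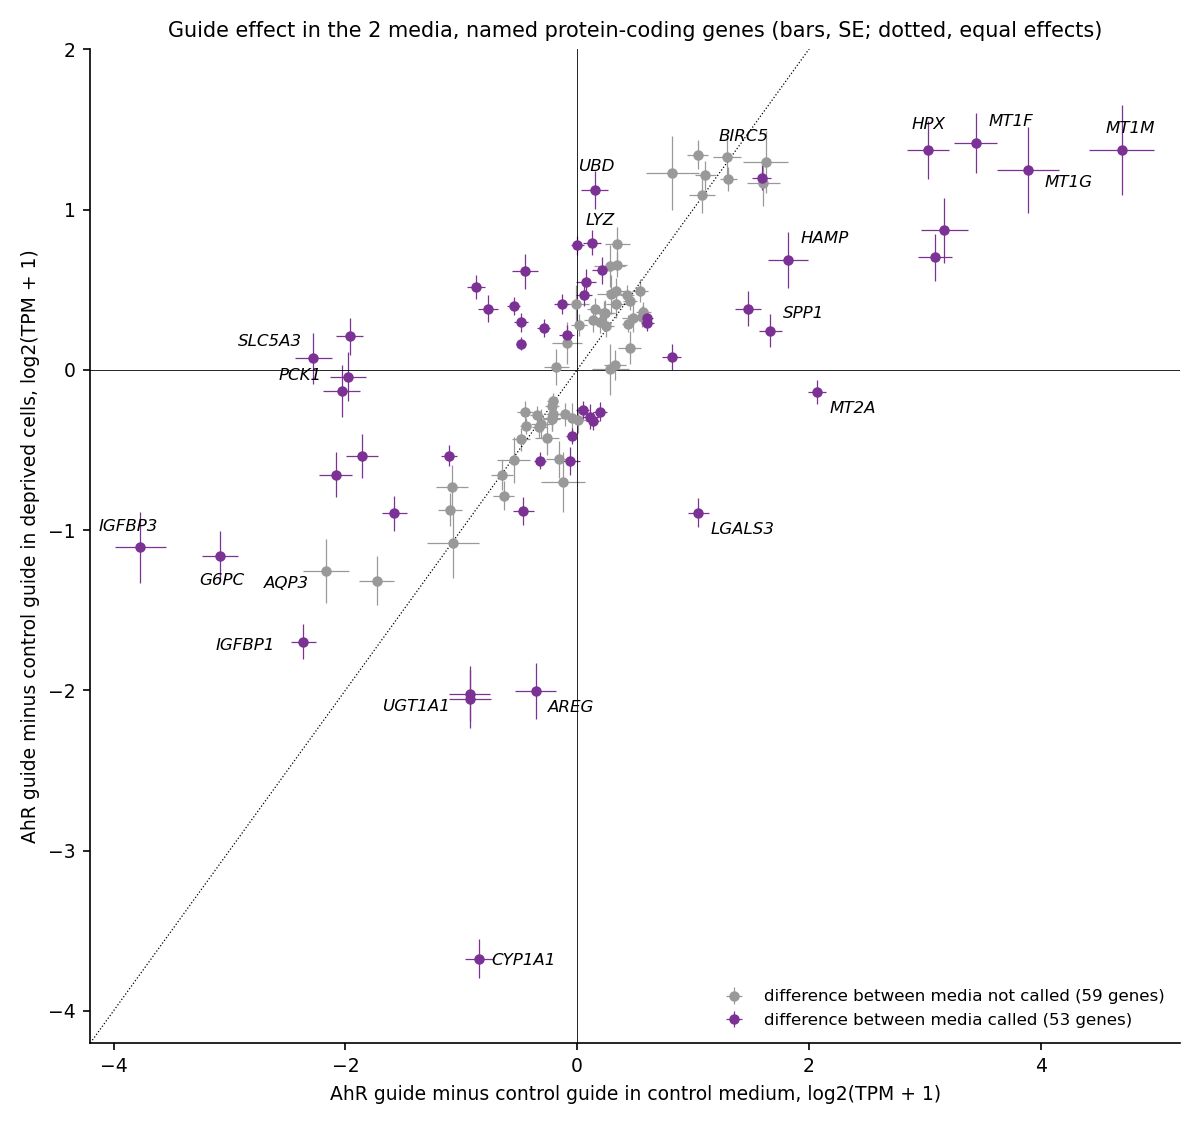
Each point is 1 named protein-coding gene, with the AhR guide minus control guide difference in control medium on the x axis and in deprived cells on the y axis, both in log2(TPM + 1), and bars of 1 SE. CYP1A1 and AREG lie far below the dotted line of equal effects, metallothioneins lie to its right, and the cell cycle genes TOP2A and BIRC5 lie near it. Of the 22 measured cell cycle genes, not all shown, 10 had a negative interaction and 0 a positive one.

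A time course of HepG2 cells without guide RNA, in other libraries, gave lists of genes that deprivation changes at day 12. At an adjusted p under 0.05 and at least 2-fold, 436 of 12488 genes (3.49%) were higher and 268 (2.15%) lower in deprived cells. Of the 436, 433 were tested here, and 77 were lower and 42 higher with the AhR guide, against 4.48% and 7.53% of all genes. The 77 include the 9 UGT1A entries, and with that locus counted once 69 of 425 were lower. The median over the 433 was -0.08. The count of 42 fell to 27 without replicate 1 of the AhR guide, to 28 without its replicate 3, and to 29 and 30 without replicates 2 and 3 of the control guide. Of the 268, 261 were tested, and 74 were higher and 21 lower, with a median of 0.11. The 21 fell to 9 without replicate 1 and 12 without replicate 3 of the AhR guide, and to 13, 11 and 13 without replicates 1, 2 and 3 of the control guide.

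The deprivation effect itself can be read with either guide, deprived minus control medium, though these values share libraries with the comparison of guides. The genes higher at day 12 had a median deprivation effect of 1.31 (1.33 without replicate 3 in control medium) with the control guide and 0.97 with the AhR guide. The genes lower at day 12 had medians of -1.28 (-1.31 without that replicate) and -0.70. These medians also hold the guide effect in control medium, which was the larger one. Over the genes higher at day 12 the median guide effect was 0.25 in control medium and -0.08 in deprived cells. Over the genes lower at day 12 it was -0.48 in control medium and 0.11 in deprived cells. CYP1A1 rose by 2.73 ± 0.12 with the control guide and showed -0.10 ± 0.12, adjusted p = 0.535 with the AhR guide. AREG rose with both guides, by 4.40 ± 0.18 and 2.76 ± 0.18.

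Of the 6 highest and 6 lowest genes of the time course, named after their values were seen, 6 did not pass the test between guides in deprived cells. SPP1, the secreted matrix protein osteopontin, rose by 6.55 ± 0.08 in the time course and was at 503, 469.6 and 487 TPM with the control guide and 584, 559 and 585 TPM with the AhR guide in deprived cells, a difference of 0.24 ± 0.10, adjusted p = 0.155. TIMP1, a protease inhibitor, and AKR1B10, an aldo-keto reductase, did not pass either, at 0.00 ± 0.16, adjusted p = 0.995 and 0.14 ± 0.10, adjusted p = 0.438. The same held for MT2A, given above, and, among the genes that deprivation lowers, for PCK1 (-0.13 ± 0.16, adjusted p = 0.671) and the inositol transporter SLC5A3 (0.07 ± 0.16, adjusted p = 0.828). Those called included HAMP, SNORA79 and AFP, which rose, and ANKRD1 and FBLN5, which fell. SNORA79 lost its call under 6 of 16 alternatives (adjusted p up to 0.0944) and FBLN5 at a pseudocount of 5 (adjusted p = 0.0525). ANKRD1 fell with the AhR guide (-0.57) but still rose with deprivation, by 3.38 ± 0.09 with the control guide and 2.87 ± 0.09 with the AhR guide.

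**Figure D5:**
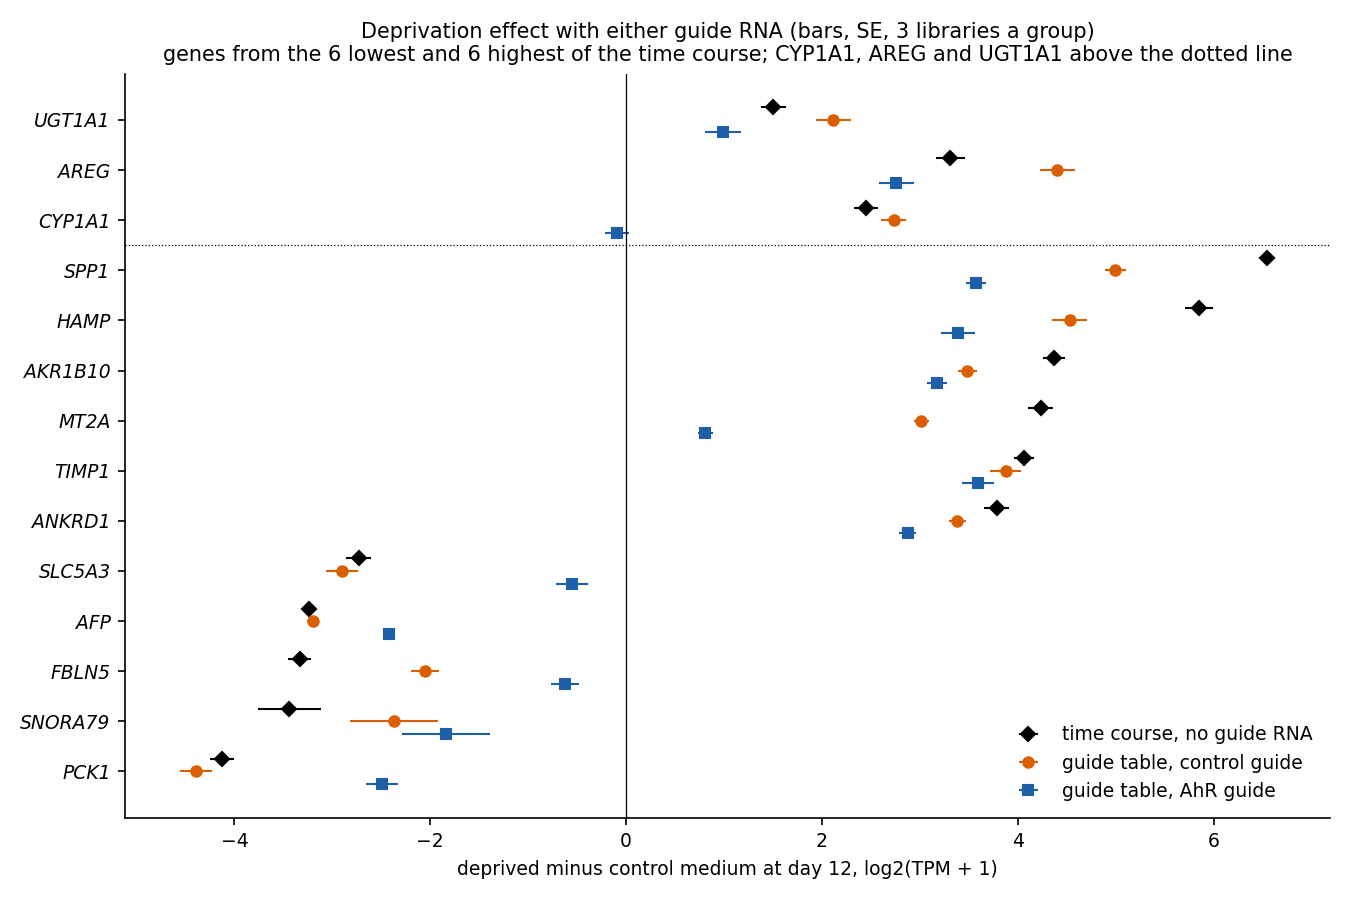
The x axis gives the deprived minus control medium difference at day 12 in log2(TPM + 1), with bars of 1 SE and 3 libraries a group, for the control guide and the AhR guide. Rows are genes from the 6 lowest and 6 highest of the time course, followed by CYP1A1, AREG and UGT1A1, and CYP1A1 is at 2.73 with the control guide and -0.10 with the AhR guide.

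Kyn and an AhR inhibitor, given to HepG2 in other libraries of the series, are set beside the guide. The series also holds mouse AhR-flox hepatocytes with Ad-Cre and HepG2 with an IDO/TDO inhibitor, which were not used here. A treatment labelled Kyn changed 31 of 11798 genes (0.263%) at least 2-fold upward and 33 (0.28%) downward against DMSO. Of the 28 raised by Kyn and tested here, 10 fell with the AhR guide and 4 rose, and 9 of the 10 were the UGT1A entries, which are 1 signal. Without them 1 of 19 fell, DCDC2, and 4 rose, DIO1, SNORD50B, FGG and FGA, all named after their values were seen. UGT1A1 rose by 3.10 ± 0.13 with Kyn, whereas CYP1A1 showed 0.18 ± 0.17, adjusted p = 0.521 there. Of the 32 genes lowered by Kyn and tested, 11 rose and 3 fell with the guide (TNNI2, DBNDD2 and the overlapping SYS1-DBNDD2).

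In deprived cells 171 of 11916 genes (1.44%) were at least 2-fold higher with an AhR inhibitor and 163 (1.37%) lower. The inhibitor libraries carry another date in the headers than those without inhibitor. So the inhibitor and anything else that differed between the dates cannot be told apart. Of the 171, 111 rose and 1 fell (ACTB) with the AhR guide, with a median of 0.50. Of the 163, 57 fell, or 49 of 155 with the UGT1A locus counted once, and 2 rose (CCEPR and MPDU1), with a median of -0.26. CYP1A1 fell by 2.57 with the inhibitor, AREG by 2.83 and IGFBP1 by 2.91 (adjusted p = 3.46e-07, 2.45e-05 and 1.26e-06). FABP1 rose by 1.83 ± 0.06 with the inhibitor, as it rose with the guide. UBD rose with the guide and fell with the inhibitor, at -0.63 ± 0.09, adjusted p = 0.000134, and NQO1, not called with the guide, was at 0.29 ± 0.06, adjusted p = 0.00251.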

How the data were processed

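The table of guide RNA libraries, one of 4 tables used, holds TPM values that the authors deposited. The file headers name HOMER and give each of 28035 genes 1 transcript with its length. The submitters' processing notes list STAR, HOMER, Bowtie2, hg38 and mm10 without saying what each was used for. A 3′ kit gives reads regardless of transcript length while TPM divides by it, so levels were compared between samples and not between genes. The main analysis used the values as deposited, with no further scaling. The listed genes of a library sum to 373465 to 384737 TPM, so the rest of each library lies in entries not used here.

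Its 12 libraries share a single date in the headers. They were fitted together in limma 3.58.1 (R 4.3.3) as group means of log2(TPM + 1), with moderated variances (eBayes, trend and robust) and 1 estimate of the spread for all groups. Genes needed 1 TPM in at least 3 libraries. Tests were two-sided, with Benjamini-Hochberg adjustment over all 11893 genes and a threshold of 0.05. Differences on this scale understate the change of low genes. A count test was foreseen only for a table of counts. Read numbers were recovered from the steps of the low values, of which 100% came out whole within 0.1, and were used for depth and for voom as an alternative. Each other table was fitted on its own in the same way. Libraries of 1 group differed by more than sampling noise (chi-square per gene 2.07 to 5.23), so all were kept as separate samples. On simulated reads at these depths (11709 genes) the fit recovered 46.3% of genes changed 1.5-fold, 95.5% at 2-fold and 100% at 4-fold. The spread of the simulated reads was set in advance and not estimated from these libraries. Same-numbered libraries did not deviate together (correlations -0.07 to 0.04), so no pairing was used.

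Members and the 34 gene lists were chosen with earlier results of these data known. Lists are described by counts and medians, with no set test. Genes named are AHR and the listed targets, the 12 highest and 12 lowest non-overlapping calls with a mean of 10 TPM in a group, up to 4 called members with the largest change per list, and the 6 largest interactions each way. Results for some genes are not reported here. Other list members are named where a count of 5 or fewer calls for it or where they are familiar genes of the pathway. Alternatives were another pseudocount, filter, scaling or model, a replicate block, and leaving out each library. Counting the UGT1A locus once was added after the data were seen.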

Additional observations from a re-analysis of the deposited data

Results flagged for a closer look

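For 35 named genes the guide effect in deprived cells differed from that in control medium by at least 0.7 on the log2 scale at an adjusted p under 0.05 in the limma interaction, 17 of them upward and 18 downward. Values here are the effect in deprived cells minus that in control medium.

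AhR targets and growth factor genes with a more negative effect in deprived cells were CYP1A1 (-2.83), AREG (-1.64), UGT1A1 (-1.13) and UGT1A6 (-1.09), together with the NRF2 target NQO1 (-0.74). Metallothioneins rose more in control medium, with MT1M (-3.33), MT1G (-2.65), MT1X (-2.38), MT1E (-2.30), MT2A (-2.21) and MT1F (-2.02). So did HPX, HAMP and the biliary markers SPP1 and KRT19, with HPX (-1.65), HAMP (-1.14), SPP1 (-1.43) and KRT19 (-1.09). LGALS3 had opposite signs in the media, with LGALS3 (-1.94). Small RNA genes below 0 were MIR7703 (-2.58) and SNORA67 (-1.27), and those above 0 were SNORA19 (1.11) and SCARNA22 (1.23).

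A more positive effect in deprived cells was seen for liver function genes, namely PCK1 (1.90), G6PC (1.92), ALB (0.94), AFP (0.78), ARG1 (1.06) and TFR2 (1.15). It was also seen for the immune and stress genes CCL20 (1.39), IER3 (1.32), UBD (0.97) and LYZ (0.77). The remaining positive values were IGFBP3 (2.66), SLC5A3 (2.35), FILIP1L (2.17), ANGPTL4 (1.93) and FBLN5 (1.43). FILIP1L, a filamin A interacting protein, was at 87.6, 95.9 and 65.5 TPM with the control guide and 17.8, 21.1 and 22.2 TPM with the AhR guide in control medium, and at 20.3, 20.2 and 20.0 and 22.0, 24.4 and 24.2 TPM in deprived cells. ANGPTL4, an inhibitor of lipoprotein lipase, was at 20.6, 23.8 and 15.4 and 3.65, 3.86 and 5.35 TPM in control medium and at 2.00, 2.08 and 2.83 and 2.14, 2.11 and 2.31 TPM in deprived cells. The calls for MIR7703, UGT1A1, UGT1A6, IGFBP3, MT1M and PCK1 were lost under at least 1 alternative, and 34 of the 35 were called without replicate 3 of the control guide in control medium, all but MIR7703. Groups of 3 libraries are too small for a check of single outlying libraries.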

How the results depend on the processing

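With 3 libraries a group the number of calls in deprived cells depended on single libraries. Leaving out each of the 6 in turn gave 537 to 696 genes higher against 896, and 311 to 378 lower against 533. Under the other alternatives 643 to 1138 were higher and 408 to 754 lower, the lowest without the filter and the highest with voom on recovered reads. The share of higher calls was 62.7%, and 53.4% with median scaling. With a replicate block 804 genes were higher and 473 lower, and no pairing was shown by the data.

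Of the genes higher at day 12 of the time course, 27 to 35 were called higher when 1 library was left out, against 42. Of those lower at day 12, 9 to 16 were called lower, against 21, and 12 were without the filter and 12 with a pseudocount of 5. The interaction was lower for 1986 genes with voom, against 979, and the cause was not tested.

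Of 121 named genes called, 79 kept their call under every alternative that tested them (17 for 73 genes and 16 for 6), 42 lost it under at least 1, and 0 reversed. Of 67 named interactions called, 42 kept the call. At this depth genes such as CYP1A2 are beyond reach. Of 1.5-fold changes 46.3% were recovered on simulated reads, while several genes named above were called at smaller changes.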

Other observations

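A few groups that belong to no comparison above are given as values. Chemokines and NF-kB feedback genes had 2 of 9 higher (22.2%) and 1 lower (11.1%) in deprived cells with the AhR guide, against 7.53% and 4.48% of all genes. CCL20, which draws immune cells through CCR6, was at 54.8, 58.9 and 59.9 TPM with the control guide and 85.8, 81.1 and 82.5 TPM with the AhR guide, a difference of 0.52 ± 0.07, adjusted p = 0.000611 with no overlap. IER3, an early response gene, was at 579, 599 and 603 TPM with the control guide and 417, 445 and 366 TPM with the AhR guide (-0.54 ± 0.14, adjusted p = 0.03), and its call was lost without any 1 of 5 libraries, all but replicate 2 of the AhR guide. NFKBIA was called at 0.22 (adjusted p = 0.0449) and lost under 9 of 17 alternatives.

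LYZ was higher with the AhR guide in deprived cells (0.78 ± 0.06, adjusted p = 4.79e-06) and showed 0.00 ± 0.06, adjusted p = 0.986 in control medium, at 819.6, 771 and 749 TPM with the control guide and 748, 811 and 783 TPM with the AhR guide. CD68 was lower in both media, at -0.66 ± 0.09, adjusted p = 0.000505 in deprived cells and -0.65 ± 0.09, adjusted p = 0.000115 in control medium. The part of other cells in these values was not tested, while HBB was at 0 in all 12 libraries.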
